A study of Homo sapiens with 6 samples.

Results

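H3K27ac, the acetylation of lysine 27 of histone H3, was examined at 7 genes of the replication stress response whose products work with or around SLFN11. These are ATR, CHEK1, WEE1, RPA1, MCM3, DHX9 and CDT1. The rule that names them uses no measured value. Each was taken as an hg19 span given to the nearest kb and extended by 5 kb on each side, 416 kb in all, and every deposited peak overlapping a span was kept. This gave 46 of 174843 peaks in parental cells after DMSO, 47 of 180754 at 2 h of camptothecin and 47 of 181577 at 4 h. In the knockout it gave 60 of 271785 peaks after DMSO, 50 of 221753 at 2 h and 78 of 410176 at 4 h.

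The cells were of the CCRF-CEM line, an established line from a human T lymphoblast leukemia, and were either wild-type for SLFN11 (parental) or carrying a knockout of it. Both received the vehicle DMSO or 100 nM camptothecin, a poison of topoisomerase 1, for 2 h or 4 h, and chromatin was precipitated with an antibody against H3K27ac. There was 1 library for each of the 6 combinations. Differences between them thus have no replicate check, and no test between groups was made. The labels do not say how many clones the knockout stands for, and the ChIP protocol in the labels names only the 4 h treatment. The SLFN11 locus and the markers of T lymphoblasts were not analysed here, since no hg19 annotation was used.

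When a replication fork stalls, single-stranded DNA is coated by the RPA complex, which brings in the kinase ATR. ATR activates CHK1, and together with WEE1 this restrains entry into mitosis and the firing of further origins. SLFN11 is known to be recruited to stressed forks through RPA1, to contact MCM3 and DHX9 there, and to promote the degradation of CDT1. H3K27ac marks active promoters and enhancers.

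The libraries differed in depth, as far as the peak lists show it. The background pileup, the number of fragments per base that the peak caller took as background, was between 0.506 and 0.715 in 5 libraries and 0.168 in knockout 4 h. Knockout 4 h also had a median peak width of 200 bp, against 431 to 449 bp in the others. Values of knockout 4 h are therefore given apart wherever they differ.

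All 7 genes carried a peak within 2 kb of the 5′ end of their span in all 6 libraries. Fold here means the pileup at a peak over its local background in the same library, and rank means the order by p within a list, both from the authors' deposited values. By rank, these 5′ peaks of ATR, CHEK1, WEE1, RPA1, MCM3 and DHX9 lay among the first 2.23% of every list. The CDT1 peak lay between 3.95% and 5.87% in 5 libraries, and at 1.37% in knockout 4 h, which had the longest list. By fold, ATR and MCM3 had the highest values and CDT1 the lowest, with CHEK1, RPA1, DHX9 and WEE1 between them in that order in all 6 libraries. The order by pileup was another (below). ATR and MCM3 exchanged places between libraries, and no spread is at hand to part neighbours in this order.

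**Figure D1:**
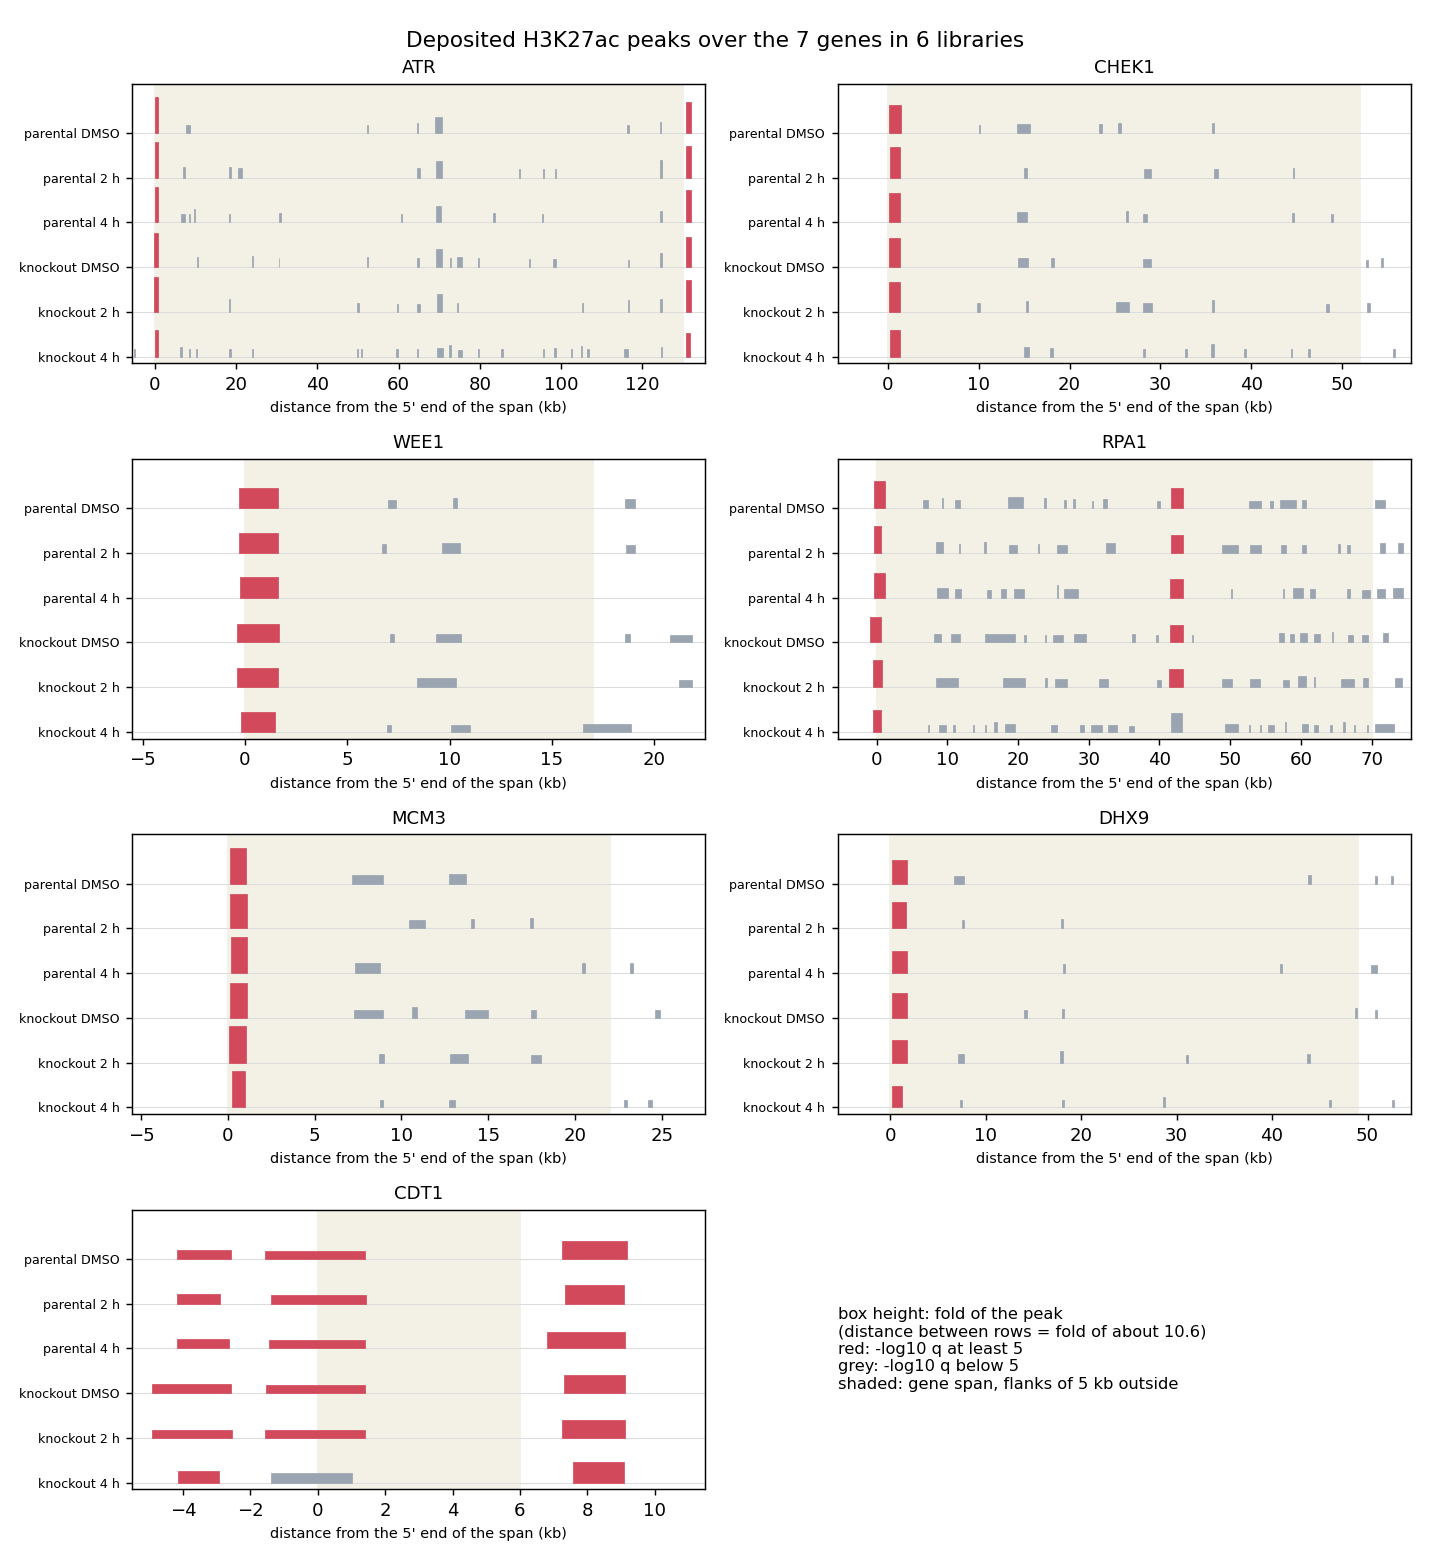
Deposited H3K27ac peaks over the 7 genes, with the distance from the 5′ end of each span in kb on the x axis and 1 row per library. Box height is the fold, red boxes have a −log10 q of at least 5, grey boxes less, and shading marks the gene span. A red box stands at the 5′ end of every gene in every library except CDT1 in knockout 4 h, where the −log10 q was 4.999.

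Among the checkpoint kinases, ATR, the kinase that senses RPA-coated DNA, had its 5′ peak at chr3:142297124-142298055 in parental DMSO. Its fold was 8.43, 8.49 and 8.36 in parental cells after DMSO, 2 h and 4 h, and 8.06, 8.25 and 6.36 in the knockout in the same order. The first 5 libraries lay within a ratio of 1.05 of each other, and knockout 4 h was below them. CHEK1, which encodes the effector kinase CHK1, had its peak at chr11:125495185-125496413 in parental DMSO. Its fold was 6.69, 7.24 and 6.99 in the parental libraries and 6.96, 6.96 and 6.29 in the knockout. Parental DMSO thus held the lowest of the 5 values outside knockout 4 h. Among 18835 regions fixed over all lists (below), CHEK1 ranked 780, 405 and 309 in the parental libraries and 640, 453 and 968 in the knockout. WEE1, the kinase that inhibits CDK1, had a wider peak, 1903 bp at chr11:9594731-9596633 in parental DMSO. Its fold was 4.68, 4.71 and 4.80 in the parental libraries and 4.38, 4.56 and 4.78 in the knockout, so the groups overlapped and knockout 4 h was not the lowest.

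RPA1, the large subunit of RPA, had its 5′ peak at chr17:1732571-1734172 in parental DMSO. Its fold was 6.52, 6.46 and 5.80 in the parental libraries and 5.94, 6.37 and 5.24 in the knockout, with overlap between the groups. In the RefSeq table SMYD4 starts 103 bp from RPA1 on the opposite strand, so this peak cannot be assigned to one of them. DHX9, a helicase that resolves RNA:DNA hybrids, had its peak at chr1:182808244-182809784 in parental DMSO. Its fold was 5.58, 6.24 and 5.34 in the parental libraries and 5.77, 5.40 and 5.11 in the knockout. The antisense RNA gene DHX9-AS1 overlaps this end of DHX9 in the table. The highest value was at 2 h in parental cells, and the same time in the knockout was below its control.

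MCM3 is a subunit of the replicative helicase, and CDT1 loads that helicase onto origins before forks start. The MCM3 peak was narrow, 942 bp at chr6:52148936-52149877 in parental DMSO. Its fold was 8.34, 8.24 and 8.43 in the parental libraries and 8.19, 8.57 and 8.71 in the knockout. It was the steadiest of the 7 by fold, with a ratio of 1.06 between the highest and the lowest of the 6 libraries. By p it moved more: among the 18835 regions MCM3 ranked 1157, 1100 and 805 in the parental libraries, and 1088, 257 and 253 in the knockout. By pileup over library background (below), the same ratio for MCM3 was 1.68, the largest of the 7. Without knockout 4 h it was 1.41, and CHEK1 had the largest, 1.47. The CDT1 peak was the widest, 2953 bp at chr16:88868441-88871393 in parental DMSO. Its fold was 1.89, 2.03 and 2.04 in the parental libraries and 1.85, 1.88 and 2.30 in the knockout. The treated libraries lay above DMSO in both genotypes, but barely so in the knockout at 2 h. Knockout 4 h, the library with the lowest background pileup, was the highest of the 6.

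The low fold of CDT1 did not stand for few fragments. The fold and p of a peak can be solved together for its pileup and its local background, both in fragments per base. For CDT1 the implied pileup was 134, 125 and 138 in the parental libraries and 138, 161 and 50.3 in the knockout. The implied local background there was 70.7, 61.3 and 67.1 in the parental libraries and 73.9, 85.1 and 21.3 in the knockout. Divided by the background pileup of each library, the local background of CDT1 was 106 to 126 times the library's own level. WEE1 came next with 24.1 to 30.1 times, and ATR and MCM3 had 7.32 to 12.3 times. Of all peaks with a −log10 q of at least 5, between 0.124% and 0.530% had a local background as high as CDT1, and 99.7% to 99.8% had a fold as high.

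The order of the 7 genes therefore depended on the measure. By pileup over library background, CDT1 was the highest in all 6 libraries, at 223, 248 and 243 in the parental libraries and 197, 225 and 299 in the knockout. ATR, among the highest by fold, was the lowest of the 7 by pileup in 5 libraries, between 69.1 and 94.4, and DHX9 was the lowest in knockout 4 h with 74.1. CHEK1 stood at 122, 149 and 158 in the parental libraries and 108, 125 and 134 in the knockout, lowest after DMSO in each genotype. The same held for ATR, RPA1, MCM3 and CDT1, and for the median over all peaks with a −log10 q of at least 5, which was 63.6, 69.3 and 70.6 in the parental libraries and 54.5, 57.5 and 107.6 in the knockout. The knockout 4 h median rests on 5467 such peaks, against 12656 to 15215 in the other libraries, so it is not of a like set. CDT1 exceeded the next gene by at least 1.53 times in pileup and by 4.20 to 4.86 times in local background. Solving from values averaged over a peak overstates the pileup, and with it the local background, which follows from pileup and fold. In simulated peaks whose pileup swung by 50%, the overstatement of pileup was 1.36 times at a fold of 1.9 and a background of 70. It was at most 1.11 times at a fold of 4.5 or more. Both leads of CDT1 are affected, and the one in pileup is the smaller and the less firm. They are not separate results, since the local background is solved from the same pileup and fold. Whether it holds fragments of the wide CDT1 peaks themselves was not tested, and the control of the peak calls was not given.

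**Figure D2:**
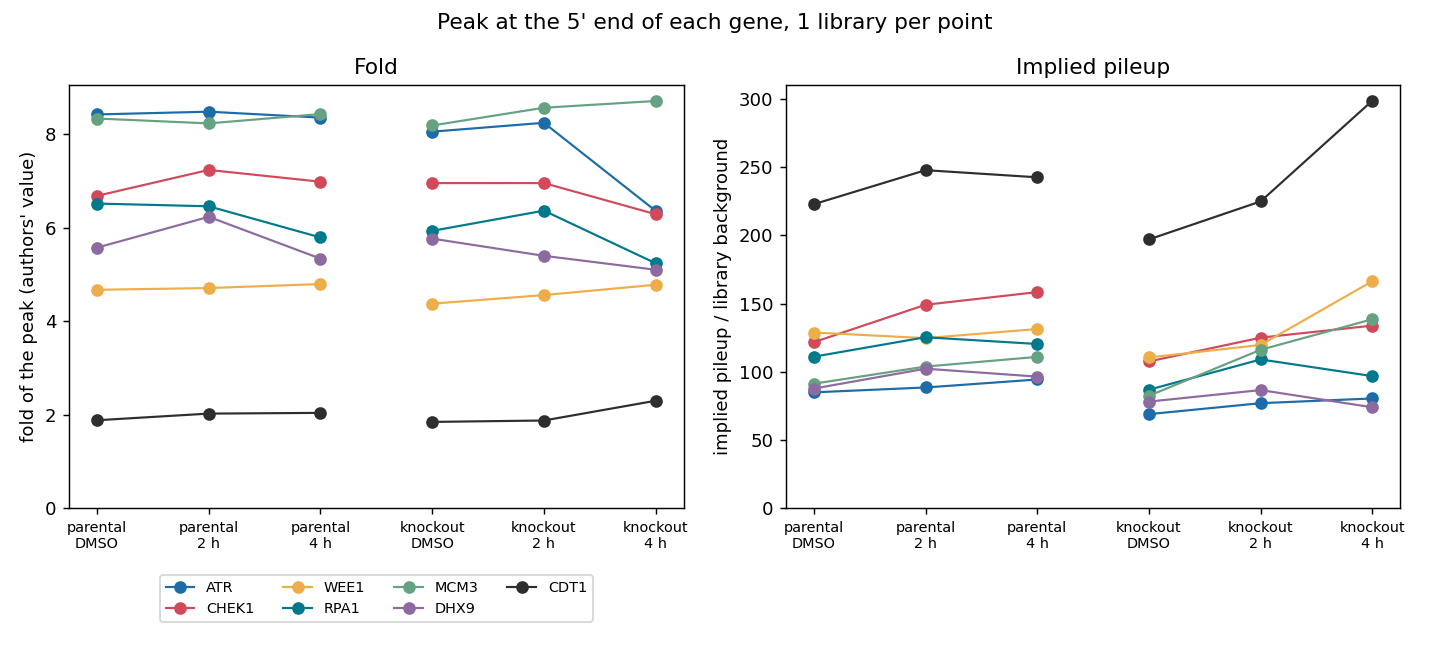
The peak at the 5′ end of each of the 7 genes, by library on the x axis, as the authors' fold (left) and as the implied pileup over the background pileup of the library (right). Each point is 1 library, and lines join libraries of one genotype. CDT1 is lowest on the left, between 1.85 and 2.30, and highest on the right, between 197 and 299.

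**Figure D3:**
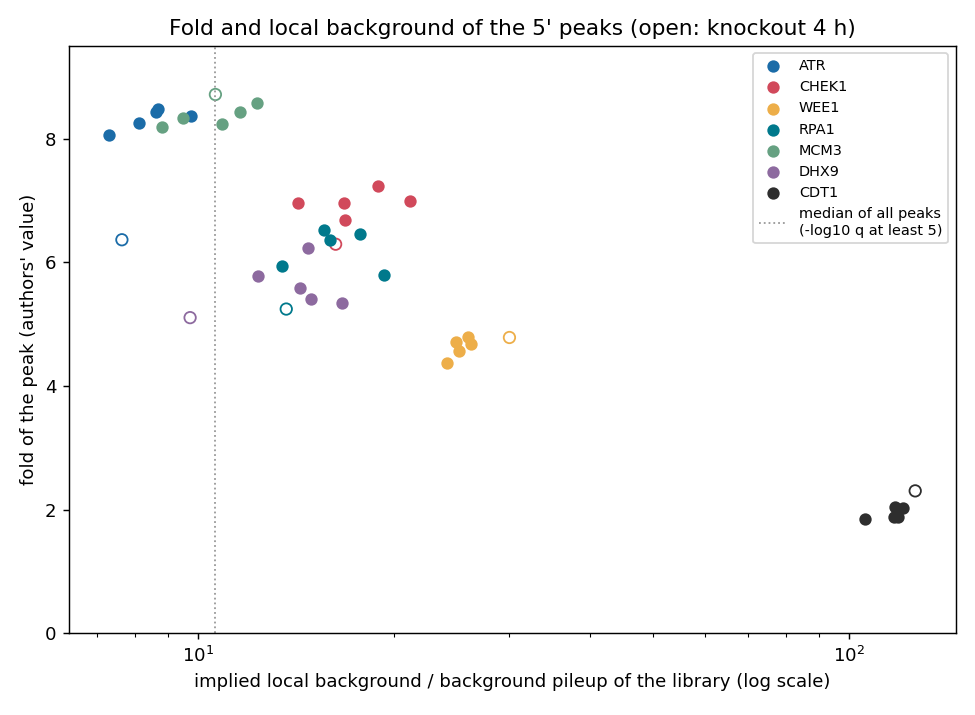
Fold of the 5′ peaks (y axis) against their implied local background over the background pileup of the library (x axis, log scale). Filled points are 5 libraries, open points knockout 4 h, and the dotted line is the middle value of the medians of those 5 libraries, each over all peaks with a −log10 q of at least 5. CDT1 lies at 106 to 126 with a fold near 2, and the other 6 genes lie between 7.32 and 30.1.

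Strong peaks other than those at the 5′ ends were found at 3 genes. At CDT1, one peak lay upstream, at chr16:88865824-88867429 in parental DMSO, and another lay 7.26 to 9.16 kb downstream of the 5′ end, outside the CDT1 span. In the RefSeq table the next gene there is APRT, a purine salvage enzyme gene on the opposite strand, 81 bp from CDT1. That outer peak had a fold of 4.22, 4.34 and 3.83 in the parental libraries and 4.39, 4.24 and 4.79 in the knockout, the largest within the extended CDT1 span in every library. The upstream peak had a fold of 2.08, 2.26 and 2.14 in the parental libraries and 2.13, 1.97 and 2.70 in the knockout. Of the extended CDT1 span, 32.3% to 45.0% was covered by these 3 peaks, and the count of 3 was the same in every library.

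At ATR, the other strong peak lay just past the 3′ end of the span, at chr3:142166074-142167144 in parental DMSO. XRN1, an exonuclease gene, starts 1198 bp from ATR there in the RefSeq table. The fold of this peak was 7.28, 7.43 and 7.68 in the parental libraries and 7.22, 7.58 and 5.55 in the knockout. As at the 5′ end of ATR, knockout 4 h was below the others and the rest overlapped.

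RPA1 held the only other strong peak inside a gene body, with a −log10 q of at least 5 in all but knockout 4 h, at chr17:1774574-1776304 in parental DMSO, 41.6 kb from the 5′ end. Its fold was 4.85, 4.29 and 4.42 in the parental libraries and 4.19, 4.34 and 4.38 in the knockout, and its −log10 p was 16.9, 9.79 and 11.6 in the parental libraries and 13.4, 15.9 and 6.23 in the knockout. Parental DMSO was the highest by both. Among the 18835 regions it ranked 6501, 10002 and 9300 in the parental libraries and 8602, 8013 and 7440 in the knockout. The treated parental libraries had the lower ranks, and knockout control lay between them and parental DMSO. A weaker peak stood inside ATR, 69.0 kb from its 5′ end in parental DMSO. Its fold was 3.67, 4.05 and 3.95 in the parental libraries and 4.24, 4.32 and 1.98 in the knockout, with a −log10 q below 5 in all 6.

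To set the genes against the rest of the genome, regions were made by merging peaks, 15000 from each library other than knockout 4 h, taken in order of p. The strength of a region was the largest fold of its deposited peaks, divided by the median over all 18835 regions of that library. The 7 genes held 11 regions: their 5′ ends, both flanking peaks of CDT1, the ATR peak next to XRN1 and the peak inside RPA1. A change was called at 1.5-fold in either direction. After 2 h in parental cells 0 of 11 were called, where 6.46% of 18689 regions with a value were. After 4 h in parental cells 0 of 11 were called, against 5.01% of all. In knockout cells at 2 h it was 0 of 11 against 3.41%. Between knockout and parental cells, 0 of 11 were called after DMSO (4.87% of all) and at 2 h (7.60% of all). All 11 regions were among the 9417 strongest by mean rank, where calls were rarer in these 5 comparisons, at 0.584%, 0.510%, 0.244%, 0.340% and 0.616% in the order given. Counts of 0 among 11 are near that background and say little about the genes themselves.

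The largest departures among these ratios were small. The most extreme log2 ratio was −0.22, inside RPA1 for knockout against parental cells after DMSO. In parental cells after 2 h, the log2 ratio was −0.21 for the peak inside RPA1, with 15.2% of all regions at or below it, and 0.13 for DHX9. After 4 h, it was −0.17 at the RPA1 5′ end, −0.14 both inside RPA1 and at the outer CDT1 peak, and 0.11 at the CDT1 5′ end. In knockout cells after 2 h, the largest were −0.13 at the upstream CDT1 peak and −0.11 at DHX9, while the RPA1 5′ end stood at 0.08, the peak inside RPA1 at 0.03 and the CDT1 5′ end at 0.00. The difference between the genotypes in these changes was not tested. After DMSO, knockout against parental gave −0.22 inside RPA1 and −0.15 at its 5′ end. Both treated parental ratios and this one share the single parental DMSO library. At 2 h, knockout against parental gave −0.21 at DHX9 and −0.20 at the upstream CDT1 peak.

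The median over the 11 regions was −0.00 at 2 h and 0.01 at 4 h in the parental libraries, and 0.02 at 2 h in the knockout, beside medians of 0.01, 0.02 and −0.01 over all regions. CHEK1 stood at 0.09 and 0.06 in parental cells at 2 h and 4 h and at −0.02 in the knockout at 2 h. WEE1 stood at −0.02 and 0.03 in the parental libraries and 0.04 in the knockout. For MCM3 the values were −0.05, 0.01 and 0.05, and for the ATR 5′ end −0.02, −0.01 and 0.02.

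**Figure D4:**
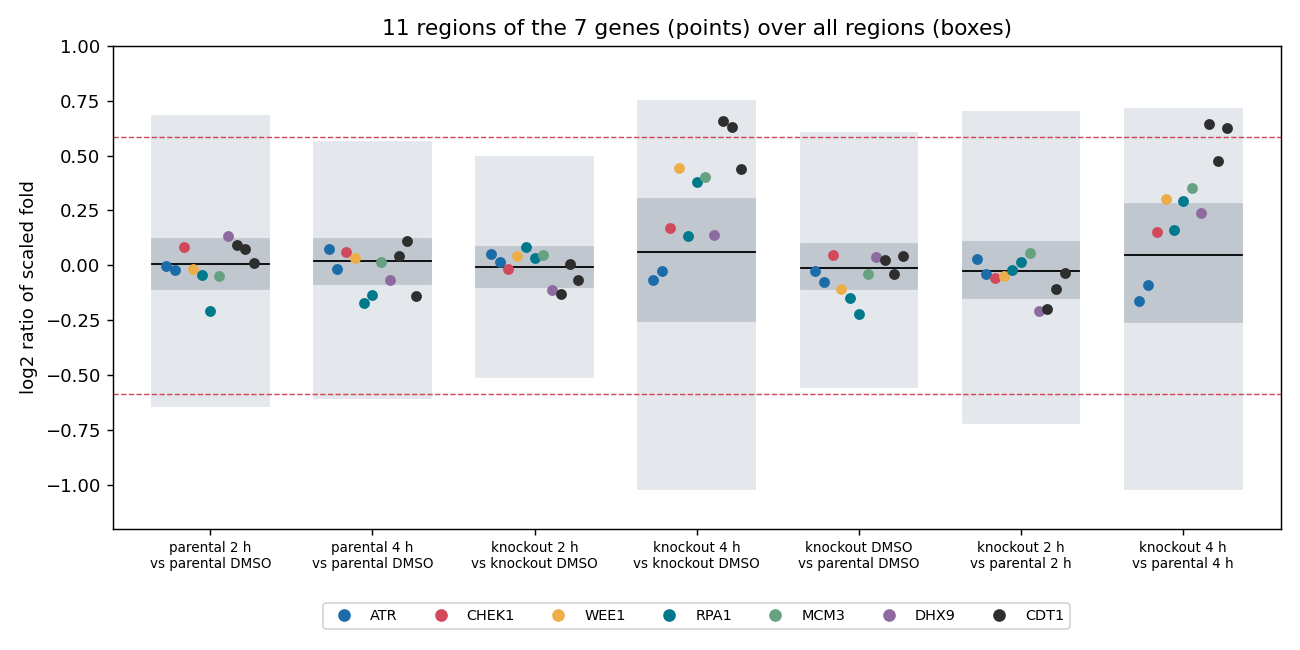
Log2 ratios of scaled fold (y axis) for the 11 regions of the 7 genes (points, coloured by gene) in 7 comparisons (x axis). Dark and light boxes span the middle 50% and 95% of all regions, the black line is their median, and dashed lines mark 1.5-fold. Points pass a dashed line in the comparisons with knockout 4 h, and all of those are regions of CDT1.

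Knockout 4 h gave the only calls. Against knockout DMSO, 2 of 11 regions passed 1.5-fold, where 16.6% of all regions and 9.10% of the 9417 strongest did. They were the 5′ end of CDT1, with a log2 ratio of 0.63, and its upstream peak, with 0.66. Against parental 4 h, 2 of 11 passed, beside 15.6% of all and 8.04% of the strongest: the upstream and the outer peak of CDT1, with 0.64 and 0.63. The median of the 11 was 0.38 and 0.29 in these comparisons, and over all regions it was 0.06 and 0.05. MCM3 stood at 0.40 and 0.35, WEE1 at 0.44 and 0.30, and the ATR 5′ end at −0.03 and −0.09. Without scaling, the median of all regions was −0.25 and −0.26, and no region of the 7 genes passed 1.5-fold. The signs of CHEK1, DHX9 and the RPA1 5′ end then turned negative in both, as did WEE1 and the peak inside RPA1 against parental 4 h. The 3 CDT1 regions and MCM3 stayed above 0 in both, between 0.05 and 0.34. These calls come with a background pileup of 0.168 against 0.699 and 0.570 in the libraries compared, and its part in them was not tested. By −log10 p, 5 of 11 were called against parental 4 h, beside 36.9% of all regions (18.4% higher and 18.5% lower). The upstream CDT1 peak was again higher, both ATR peaks were lower as they were by fold, and CHEK1 and the RPA1 5′ end, above 0 by fold, were lower.

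Most peaks in the spans were weak. Outside knockout 4 h, 11 peaks had a −log10 q of at least 5 in every library, and all 11 overlapped a deposited peak in the other 4, as did 99.6% to 99.9% of all such peaks. Between 35 and 49 others had less. In parental 2 h, 8 of these 36 weak peaks (22.2%) overlapped a peak in each of the other 4 libraries and 6 (16.7%) in none, where 28.2% and 18.4% of all weak peaks on chromosomes 1 to 22 and X did. In knockout DMSO it was 7 of 49 (14.3%) and 13 (26.5%), beside 18.2% and 31.4%. In parental 4 h, 8 of 36 (22.2%) overlapped none, above the 18.1% of all. Knockout 4 h had 9 strong and 69 weak peaks in the spans.

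Outside knockout 4 h, weak peaks made up most of the difference in covered length between the genotypes. The 7 spans were covered over 41351, 38528 and 40783 bp in the parental libraries and over 51366, 50351 and 48064 bp in the knockout. The knockout libraries were all above the parental ones, as was the share of chromosomes 1 to 22 and X covered, at 4.07%, 4.13% and 4.19% in the parental libraries and 6.36%, 5.24% and 6.25% in the knockout. Counting only peaks with a −log10 q of at least 5, the spans were covered over 17413, 16098 and 17674 bp in the parental libraries and 18268 and 18008 bp in knockout DMSO and 2 h. Knockout 4 h had 10149 bp, so its cover by strong peaks was lower as well. There the CDT1 5′ peak (2421 bp) and the peak inside RPA1 (1671 bp) were present but below that cut. Their −log10 q was 4.999 and 3.82. The part of depth in this was not tested.

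RPA1 was covered over 19.3% to 26.8% of its span, by 16 to 26 peaks. Cover was 15506, 15434 and 16989 bp in the parental libraries and 19865, 21460 and 19698 bp in the knockout, so the genotypes did not overlap. Of this, the strong peaks made up 1074 to 3407 bp. ATR, with a longer span, was covered over 4.05% to 7.73% and DHX9 over 3.12% to 5.54%, near the share of the chromosomes. WEE1 had 2969, 3433 and 1861 bp in the parental libraries and 4756, 4557 and 5135 bp in the knockout, again without overlap. Its strong peak held 1861 to 2038 bp in the 5 libraries other than knockout 4 h, so the gap lay in weak peaks. In parental 4 h the 5′ peak was the only one in the WEE1 span. Cover of the other 5 genes, ATR, CHEK1, MCM3, DHX9 and CDT1, overlapped between the genotypes. MCM3 ranged from 1707 bp in knockout 4 h to 4810 bp in knockout DMSO. The share of the chromosomes covered was also without overlap, at 4.07% to 4.19% in parental and 5.24% to 6.36% in knockout libraries. How often other gene spans show such a gap was not counted. The gaps at RPA1 and WEE1 thus cannot be told from that wider difference.

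**Figure D5:**
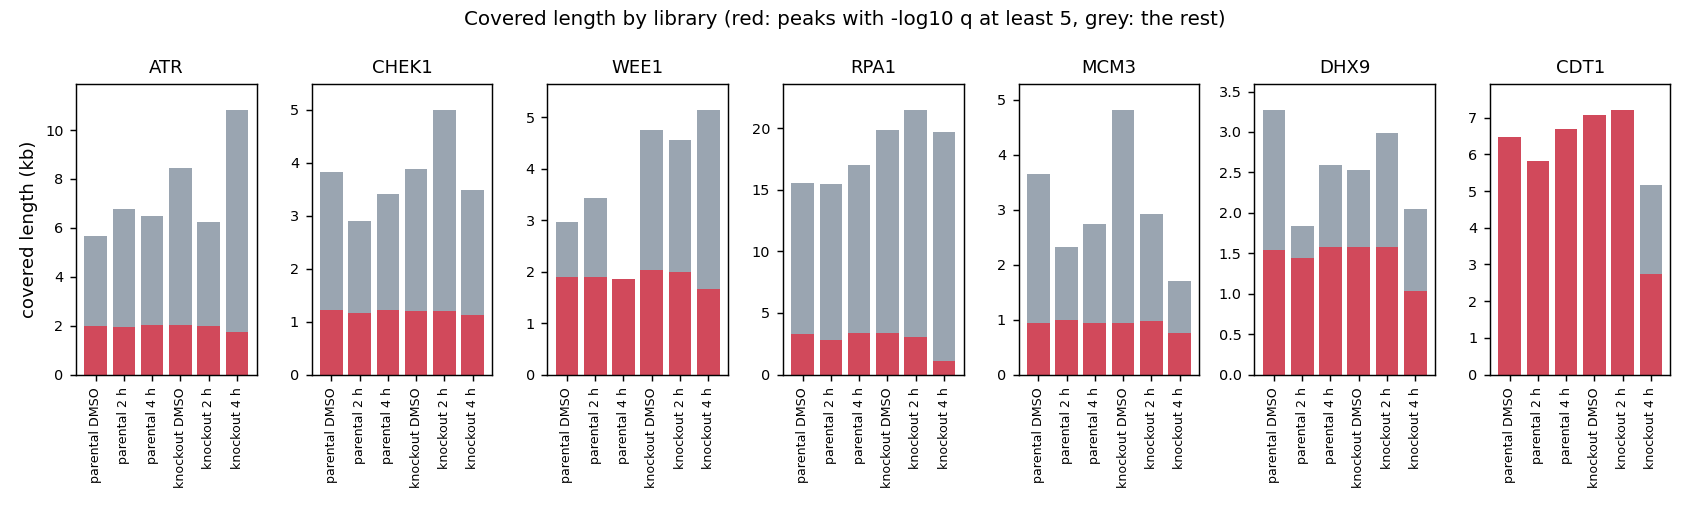
Length covered by deposited peaks in each gene span with its flanks (y axis, kb, own scale for each gene) in the 6 libraries (x axis). Red is the part from peaks with a −log10 q of at least 5 and grey the rest. The red part of WEE1 is 1861 to 2038 bp in the first 5 libraries. The grey part is larger in the knockout for RPA1 and WEE1, as is the share of all chromosomes covered.

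Promoter sequences were taken from RefSeq on GRCh38.p14, 250 bases before to 50 after a gene's start, for 6 of the 7 genes. WEE1 had no entry. The table's build differs from that of the peaks, so the windows were not laid over them. The windows of MCM3 and CDT1 are shown because their 5′ peaks had the highest and the lowest fold in the knockout, and that of RPA1 because SMYD4 starts next to it.

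MCM3: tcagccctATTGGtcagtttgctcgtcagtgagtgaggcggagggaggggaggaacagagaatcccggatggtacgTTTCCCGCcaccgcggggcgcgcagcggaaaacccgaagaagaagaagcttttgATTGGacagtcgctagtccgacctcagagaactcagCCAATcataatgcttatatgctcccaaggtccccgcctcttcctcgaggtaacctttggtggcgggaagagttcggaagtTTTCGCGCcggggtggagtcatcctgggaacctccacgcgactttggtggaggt

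RPA1: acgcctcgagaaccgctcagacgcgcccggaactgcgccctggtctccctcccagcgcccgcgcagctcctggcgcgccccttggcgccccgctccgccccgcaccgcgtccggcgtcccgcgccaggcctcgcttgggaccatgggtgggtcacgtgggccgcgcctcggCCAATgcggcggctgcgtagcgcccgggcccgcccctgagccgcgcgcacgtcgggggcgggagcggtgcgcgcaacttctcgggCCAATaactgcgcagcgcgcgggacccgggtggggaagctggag

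CDT1: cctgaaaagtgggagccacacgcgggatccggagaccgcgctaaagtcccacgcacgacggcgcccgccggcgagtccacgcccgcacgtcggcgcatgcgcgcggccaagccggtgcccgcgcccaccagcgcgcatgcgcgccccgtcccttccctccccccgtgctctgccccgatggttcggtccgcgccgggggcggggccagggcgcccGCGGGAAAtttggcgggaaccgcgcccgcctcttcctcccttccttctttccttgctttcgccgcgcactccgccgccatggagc

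Capitals mark the E2F-type octamers TTTCCCGC, TTTCGCGC, TTTGCCGC and TTTGGCGC and the CCAAT box CCAAT, each on either strand. MCM3 (chr6:52284693-52284992, minus strand) held 2 such octamers, starting 174 and 4 bases upstream of the start, and 3 CCAAT boxes. CDT1 (chr16:88803539-88803838, plus strand) held 1 octamer, 35 bases upstream, and no CCAAT box. RPA1 (chr17:1829755-1830054, plus strand) held no octamer and 2 CCAAT boxes. The octamers were found in 2 of the 6 genes and in 3.31% of 35116 promoter windows in the table. CCAAT was found in 4 of 6 genes (CHEK1, RPA1, MCM3 and DHX9) and in 34.6% of all windows. The GC box GGGCGG, not capitalised, was in 5 of 6 genes, MCM3 being the one without, and in 45.0% of all. CpG dinucleotides numbered 48 in RPA1, 47 in CDT1, 34 in ATR, 32 in DHX9 and 22 in MCM3, beside a median of 14 over all windows. The 3 windows that the table lists for CHEK1 had 12 to 15.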

How the data were processed

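Per the submitters' processing notes, the tools included MACS2 2.1.2 and BWA 0.7.17, and the build was hg19. The notes also list Picard 2.9.2, SAMtools 1.8, Trimmomatic 0.39 and Trim Galore 0.6.2. Their settings and the control of the peak calls were not given in the sources used here. For each library the authors deposited a separate list of broad peaks, with a fold (a ratio of pileup to local background), a −log10 p and a −log10 q per peak. The deposited score, 10 times the −log10 q, was not used. These values describe and rank peaks within a list.

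The members and lists were chosen with earlier results of these data known. All 7 genes are named, with every region in their spans. Spans are in kb, so a 5′ end is known to about 1 kb; their lengths differed from the RefSeq table by at most 3.99 kb (CHEK1). The strand of WEE1 was taken as plus from general knowledge. A planned list of other pathway genes was not placed, for want of an hg19 annotation. Reads were not analysed here.

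A peak overlapped a span by at least 1 bp. Coordinates are 1-based. Background pileup was solved in each list from the pair of fold and p that occurred most often, with fold as (pileup + 1)/(background + 1) and p from the Poisson distribution. It returned the deposited −log10 p within 1.22e-05. The implied pileup of single peaks used the same 2 relations, but allowed fractional pileups and took the higher solution. For the most frequent pair in knockout 4 h it gave 14.5 fragments per base, where the first method gave 1. Implied pileup is thus unreliable for weak peaks. The agreement above applies to the background pileup only. With 1 library per group, calls past a fold have no p-value. The steps were tested on simulated data. Python 3.11.15, pandas 2.3.3 and SciPy 1.17.1 were used.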

Additional observations from a re-analysis of the deposited data

How the results depend on the processing

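The labels give no replicate numbers and 1 library per group, and no fit across the 6 libraries with genotype and treatment as terms was made. The 5′ peaks were found at all 7 genes in all 6 libraries within 1 kb, 2 kb and 5 kb of the end. Values below follow the order parental DMSO, 2 h, 4 h, then knockout DMSO, 2 h, 4 h. Covered length was 32260, 30629, 30423, 40367, 40749 and 36765 bp without extension of the spans, and 63575, 61768, 65375, 76654, 76834 and 76735 bp with 20 kb. With the 30000 peaks of smallest p it was 19094, 18013, 19306, 20218, 19328 and 14886 bp, and from peaks reaching a −log10 q of 5 it was 17413, 16098, 17674, 18268, 18008 and 10149 bp. The excess of all knockout libraries over the parental ones held with both extensions and not with these 2 filters. The number of peaks was 12, 13, 13, 13, 12 and 13 with the 30000 peaks, and 11, 11, 11, 11, 11 and 9 at that q. Asking for 50% of a peak inside the span changed no count.

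The strongest fold of a span was the same without extension except for CDT1, where the outer peak beside APRT fell away, leaving 1.89, 2.03, 2.04, 1.85, 1.88 and 2.30. With 20 kb it changed for WEE1 only, to 6.27 in parental DMSO and 5.62 in knockout DMSO.

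Calls among the regions of the 7 genes stayed at 0 under every alternative for parental 4 h and knockout 2 h against their controls and for knockout against parental cells after DMSO and at 2 h. For parental 2 h against control, 1 region was called by −log10 p (16.4% of all regions) and 1 by a rank move of over 3000 places (16.9%), both inside RPA1. With regions from 30000 peaks, 1 was called at a weak peak inside ATR (11.9%). For knockout 4 h against its control the 2 calls became 1 by −log10 p (28.2% of all), 6 at a threshold of 5 to 4 (44.1%) and 0 at 2-fold (3.48%). They became 0 with regions of all 6 libraries (24.8%), without scaling (25.1%) and by implied pileup (37.6%), an alternative chosen after seeing the data. Against parental 4 h the 2 calls became 5 by −log10 p (36.9%), 4 at a threshold of 5 to 4 (42.8%), 4 by implied pileup (45.7%) and 1 by rank (34.3%). The 4 by pileup, at ATR beside XRN1, CHEK1, RPA1 and DHX9, were lower. The calls became 0 at 2-fold (3.43%), with regions of all 6 libraries (24.1%) and without scaling (25.1%). The cause of these changes was not tested. Implied pileup is unreliable for weak peaks, which the shares of all regions include. Calls and shares by that measure are thus no firm check. With 1 library per group, depth and group cannot be told apart for knockout 4 h.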
